A study of Sus scrofa with 5 samples.

Results

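Cytotoxic T and natural killer (NK) cells were taken from single-cell RNA sequencing of pig skin by the transcripts they carried. They were chosen by measured values. A cell was kept when it had at least 500 detected genes, at least 1 unique molecular identifier (UMI, a tag that counts 1 captured RNA molecule) of CD2, CD3E or CD3D, and UMIs of at least 2 of the 6 cytotoxic genes GNLY, GZMA, GZMH, NKG7, KLRK1 and CTSW. Cells with a UMI of IL17A, IL17F, FOXP3 or MS4A2, or with 2% or more of their UMIs from COL1A1, COL1A2 and COL3A1, were left out. This gate held 1743 of 28654 cells. The gate genes describe what was chosen and support no finding.

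The skin came from pigs with full-thickness wounds covered by split-thickness skin grafts. The groups, with 1 library each, were a graft under a hydrogel releasing an inhibitor of focal adhesion kinase (FAK, a kinase that relays mechanical tension) and taken at day 7, an untreated graft at day 7, a FAK inhibitor graft at day 90, an untreated graft at day 90, and unwounded skin. Dressings were exchanged every second day. The study used several pigs, but how many contributed to each library was not given in the sources used here, so no difference below has a replicate check and every interval covers counting error only.

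Cytotoxic lymphocytes kill infected or altered cells by releasing granules of perforin, granulysin and granzymes, and they call in other leukocytes with chemokines such as CCL5 and XCL1. CD8 T cells recognise peptide through the T cell receptor and its CD3 chains, whereas NK cells use germline-encoded receptors such as NKp46 (NCR1) and signal through the adaptors TYROBP and FCER1G. In pigs NK cells can also carry CD8 alpha, so a CD8A transcript alone does not separate these lineages.

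The libraries had 1586 to 9386 cells with at least 500 genes. Gated cells were small, with a median UMI count of 2031 in the FAK inhibitor day 7 graft, 2126.5 in the untreated day 7 graft, 2073.5 in the FAK inhibitor day 90 graft, 2109 in the untreated day 90 graft and 2408 in unwounded skin, against medians of 5669 to 9877 over all cells. A few large cells weighed heavily on summed counts. The number of gated cells above 5000 UMIs was 131 in the FAK inhibitor day 7 graft, 55 in the untreated day 7 graft, 7 in the FAK inhibitor day 90 graft, 16 in the untreated day 90 graft and 5 in unwounded skin. They held, of the gated UMIs, 38.1% in the FAK inhibitor day 7 graft, 43.3% in the untreated day 7 graft, 55.6% in the FAK inhibitor day 90 graft, 70.9% in the untreated day 90 graft and 79.1% in unwounded skin, where a single barcode held 48.8%. The libraries shared cell barcodes, most often the FAK inhibitor day 90 graft and unwounded skin (152) and the untreated day 90 graft and unwounded skin (133), but the number of gated cells on a shared barcode was 6 in the FAK inhibitor day 7 graft, 3 in the untreated day 7 graft, 0 in the FAK inhibitor day 90 graft, 1 in the untreated day 90 graft and 1 in unwounded skin.

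Levels are given as CPM, the UMIs of a gene per 1000000 UMIs summed over the gated cells of a library. A gene was compared when it reached 50 CPM in either library and 20 UMIs in both together, and it was counted as higher or lower past 1.5-fold, a threshold on size only. Genes are also counted that were past 1.5-fold in the same direction on 3 scales, namely the summed CPM, the mean of the CPM of single cells, and the sum without cells above 5000 UMIs. In the FAK inhibitor day 90 graft this last sum rested on under 30 cells, since 7 of its 32 gated cells were above 5000 UMIs. Values of that graft without large cells, and its calls on all 3 scales, therefore rest on few UMIs.

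The label was checked against genes outside the gate. CCL5, a chemokine stored in cytotoxic granules, had a UMI in a share of gated cells of 84.3% in the FAK inhibitor day 7 graft, 77.3% in the untreated day 7 graft, 50% in the FAK inhibitor day 90 graft, 67.8% in the untreated day 90 graft and 85.7% in unwounded skin. Collagen-rich cells, which should lack it, had one in a share of 9.34% in the FAK inhibitor day 7 graft, 7.48% in the untreated day 7 graft, 0.885% in the FAK inhibitor day 90 graft, 1.28% in the untreated day 90 graft and 0.794% in unwounded skin, at median depths of 10491 to 18101 UMIs. PRF1, perforin, was found in 30.7% of gated cells of the FAK inhibitor day 7 graft and 32.4% of the untreated day 7 graft, against 0.0943% of collagen-rich cells of the FAK inhibitor day 7 graft and 0.17% of those of the untreated day 7 graft. Both genes stood far above the free RNA of the suspension. Other markers set for the label were mixed. CD8A was higher in gated cells of each graft than in CD2 or CD3 cells with 0 or 1 cytotoxic gene. In the FAK inhibitor day 90 graft, at 79.3 against 36.1 CPM, CD8A was below the minimum for comparison. CD8B was at 77.5 against 4.1 CPM in the FAK inhibitor day 7 graft and 48.4 against 9.68 CPM in the untreated day 7 graft. At day 90 CD8B was at 70.5 against 0 CPM in the FAK inhibitor graft, and not higher in the untreated graft, at 7.43 against 7.96 CPM. KLRD1 was at 0 CPM in CD2 or CD3 cells with 0 cytotoxic genes of both day 7 grafts. With 6 cytotoxic genes KLRD1 was at 48.5 CPM in the FAK inhibitor graft and 25.4 CPM in the untreated graft. NCR1 is given with the subsets below. CD247 was lower in gated cells of each graft, at 84.8 against 94.0 CPM in the FAK inhibitor day 7 graft. In the untreated day 7 graft it was at 79.6 against 111 CPM. CD3G was at 0 CPM in gated cells of each graft, and at most 0.387 CPM in those other cells. GZMB was not measured. Among the gate genes, whose presence the rule itself fixes, GNLY (granulysin) was in 44.6% of gated cells of the FAK inhibitor day 7 graft and 40.0% of the untreated day 7 graft, against 2.74% of collagen-rich cells of the FAK inhibitor graft and 0.935% of those of the untreated graft. Summed counts also held markers of stromal cells. In CPM, 7 measured fibroblast markers summed to 760 in the FAK inhibitor day 7 graft, 1039 in the untreated day 7 graft, 547 in the FAK inhibitor day 90 graft, 1642 in the untreated day 90 graft and 1060 in unwounded skin, and 8 pericyte or smooth muscle markers to 2560 in the FAK inhibitor day 7 graft, 2222 in the untreated day 7 graft, 1419 in the FAK inhibitor day 90 graft, 2242 in the untreated day 90 graft and 1200 in unwounded skin. Without cells above 5000 UMIs the fibroblast markers summed to 173 in the FAK inhibitor day 7 graft, 312 in the untreated day 7 graft, 119 in the FAK inhibitor day 90 graft, 268 in the untreated day 90 graft and 117 in unwounded skin, and the pericyte or smooth muscle markers to 293 in the FAK inhibitor day 7 graft, 408 in the untreated day 7 graft, 19.8 in the FAK inhibitor day 90 graft, 332 in the untreated day 90 graft and 29.3 in unwounded skin. Of 10 myeloid markers, the number detected in gated cells was 9 in the FAK inhibitor day 7 graft, 9 in the untreated day 7 graft, 1 in the FAK inhibitor day 90 graft, 8 in the untreated day 90 graft and 4 in unwounded skin. Their summed level in CPM was 123 in the FAK inhibitor day 7 graft, 118 in the untreated day 7 graft, 8.82 in the FAK inhibitor day 90 graft, 102 in the untreated day 90 graft and 98.0 in unwounded skin, with LYZ at 0 in all 5. The 9 markers of other T cell lineages summed in CPM to 397 in the FAK inhibitor day 7 graft, 493 in the untreated day 7 graft, 538 in the FAK inhibitor day 90 graft, 325 in the untreated day 90 graft and 496 in unwounded skin, and CCR6 was at 0 in all but the untreated day 90 graft.

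Gated cells were 12.4% of the FAK inhibitor day 7 library (1168 of 9386 cells, 95% Clopper-Pearson interval 11.8 to 13.1%) and 5.30% of the untreated day 7 library (432 of 8147, 4.83 to 5.81%). At day 90 they were 0.836% of the FAK inhibitor library (32 of 3829, 0.572 to 1.18%) and 1.58% of the untreated library (90 of 5706, 1.27 to 1.94%). In unwounded skin they were 1.32% (21 of 1586, 0.821 to 2.02%). The FAK inhibitor graft held the larger share at day 7, 2.35 times that of the untreated graft, and the smaller share at day 90, 0.53 times. The day 90 share was 0.0672 times the day 7 share in FAK inhibitor grafts and 0.297 times in untreated grafts. Thinning each cell to 1500 UMIs, with shallower cells left out, gave shares of 8.003% in the FAK inhibitor day 7 graft, 2.94% in the untreated day 7 graft, 0.354% in the FAK inhibitor day 90 graft, 0.682% in the untreated day 90 graft and 0.866% in unwounded skin. The number of gated cells left out as shallower was 336 in the FAK inhibitor day 7 graft, 116 in the untreated day 7 graft, 7 in the FAK inhibitor day 90 graft, 30 in the untreated day 90 graft and 4 in unwounded skin, so these shares reflect both steps. The order of the grafts did not change, while the interval of unwounded skin overlapped those of both day 90 grafts with and without thinning.

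Their place among lymphocytes was steadier. Of cells with a CD2 or CD3 UMI that met all other conditions of the gate, 58.0% carried the cytotoxic genes in the FAK inhibitor day 7 graft (1168 of 2013, 55.8 to 60.2%) and 42.2% in the untreated day 7 graft (432 of 1023, 39.2 to 45.3%). At day 90 this share was 44.4% (32 of 72, 32.7 to 56.6%) in the FAK inhibitor graft and 44.8% (90 of 201, 37.8 to 51.9%) in the untreated graft. It was 75.0% (21 of 28, 55.1 to 89.3%) in unwounded skin. With cells thinned to 1500 UMIs it was 47.4% in the FAK inhibitor day 7 graft, 28.5% in the untreated day 7 graft, 27.7% in the FAK inhibitor day 90 graft, 27.0% in the untreated day 90 graft and 81.25% in unwounded skin. On both counts the intervals of the day 7 grafts did not meet, and those of the day 90 grafts overlapped. More gated cells and fewer cells of other kinds cannot be told apart in a share.

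**Figure D1:**
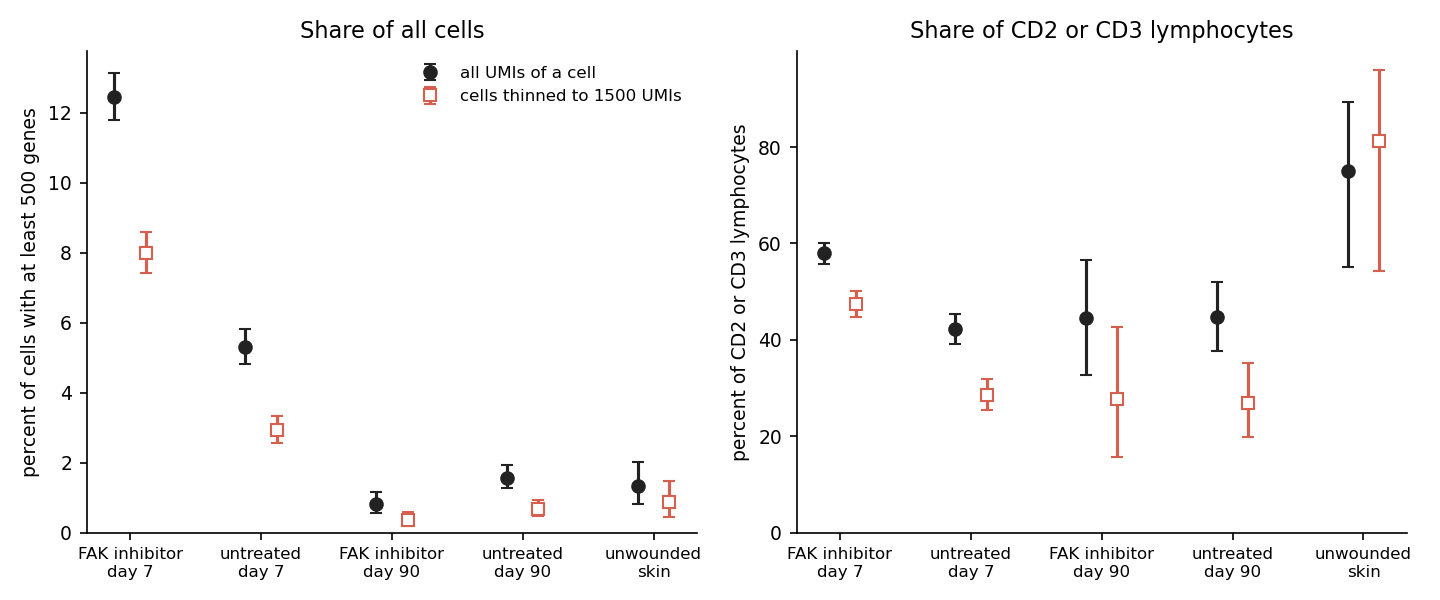
Share of cytotoxic T and NK cells among all cells (left) and among CD2 or CD3 lymphocytes (right) in each of the 5 libraries, in percent, with 95% Clopper-Pearson intervals that cover counting error only (FAKI, FAK inhibitor). Filled circles use all UMIs of a cell and open symbols cells thinned to 1500 UMIs; the FAK inhibitor day 7 library stands at 12.4% of all cells, against 5.30% in the untreated day 7 library.

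Across the edge of the gate, levels of genes outside it changed with the number of cytotoxic genes per cell. Whether this is a graded property of cells or a mixture of cell kinds within each class was not tested. In the FAK inhibitor day 7 graft, 415, 430, 249, 200, 256, 265 and 198 CD2 or CD3 cells had 0, 1, 2, 3, 4, 5 and 6 of the 6 genes, at median depths of 1824.5 to 2412.5 UMIs. PRF1, which the gate did not use, stood at 1.79, 4.03, 15.5, 64.7, 179.7, 276 and 392 CPM over these classes. CCL5 stood at 207, 409, 1246, 4590, 6960, 10347 and 12426 CPM. For both genes the cells just inside the gate, with 2 cytotoxic genes, were closer to those just outside, with 1, than to those with 3. In the untreated day 7 graft, with 306, 285, 128, 77, 89, 83 and 55 cells, PRF1 was at 4.97, 9.35, 37.2, 152, 224, 239 and 199 CPM and had its largest step between 2 and 3 genes. CCL5 there was at 251, 567, 881, 4920, 7334, 9155 and 6611 CPM, so both genes were lower with 6 genes than with 5. TNFRSF4 (OX40, a costimulatory receptor of activated T cells) ran the other way, at 402, 428, 361, 298, 146, 35.7 and 18.2 CPM in the FAK inhibitor graft. In the untreated graft it was at 376, 366, 260.3, 243, 70.02, 16.5 and 25.4 CPM. GZMK, a granzyme of memory T cells, peaked in the middle classes of both grafts. It had 341 CPM at 4 genes and 148 CPM at 6 genes in the FAK inhibitor graft, and 433 CPM at 3 genes and 65.2 CPM at 6 genes in the untreated graft.

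**Figure D2:**
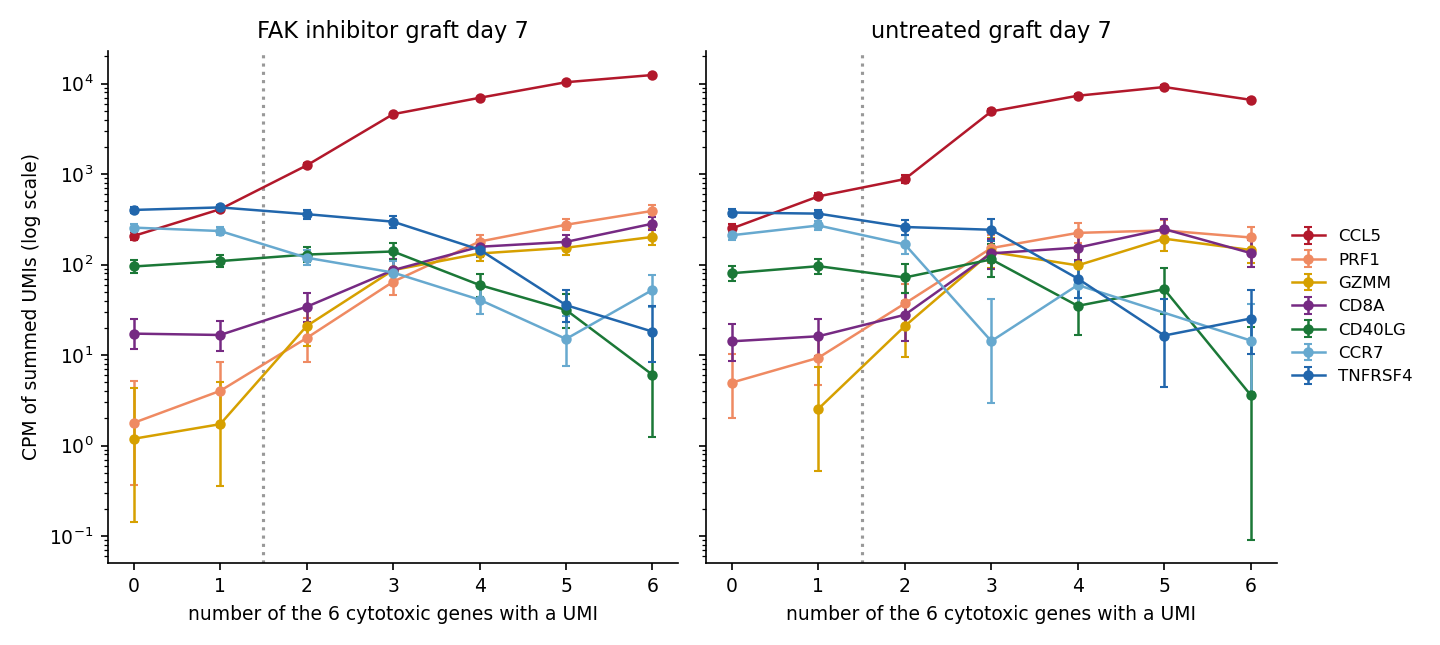
Level of 7 genes not used by the gate (CPM of summed UMIs, log scale) in CD2 or CD3 cells by the number of the 6 cytotoxic genes with a UMI, in the FAK inhibitor (left) and untreated (right) day 7 grafts. Bars are 95% Poisson intervals, the dotted line is the edge of the gate and points at 0 UMIs are not drawn; on the left PRF1 climbs to 392 CPM while TNFRSF4 drops to 18.2 CPM.

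Against the other CD2 or CD3 cells of the same library, the gated cells carried more of some killing genes beyond those of the gate. The cells were divided by genes measured in the same cells, so these values describe the gate and were not tested. In the FAK inhibitor day 7 graft 154 of 2653 genes (5.8%) were higher in gated cells and 206 (7.76%) lower, and in the untreated day 7 graft 164 of 2760 (5.94%) were higher and 169 (6.12%) lower. In both day 7 libraries 79 of 2489 genes were higher (3.17%) and 56 lower (2.25%). PRF1 had 168 CPM in gated and 2.93 CPM in other lymphocytes of the FAK inhibitor graft, and 156 CPM in gated and 6.97 CPM in other lymphocytes of the untreated graft. GZMM, a further granzyme, had 110.4 CPM in gated and 1.46 CPM in other lymphocytes of the FAK inhibitor graft, and 106 CPM in gated and 1.16 CPM in other lymphocytes of the untreated graft. XCL1, which attracts cross-presenting dendritic cells, had 239.8 CPM in gated and 4.1 CPM in other lymphocytes of the FAK inhibitor graft, and 228 CPM in gated and 0.387 CPM in other lymphocytes of the untreated graft. PRF1, GZMM and XCL1 were thus near the floor of detection outside the gate in both grafts. Not all killing genes were higher in gated cells. CTSC had 745 CPM in gated and 799 CPM in other lymphocytes of the FAK inhibitor graft. In the untreated graft it had 727 CPM in gated and 928 CPM in other lymphocytes. SRGN was at 3000 CPM with 1 cytotoxic gene and 1561 CPM with 6 in the FAK inhibitor graft. In the untreated graft it was at 3265 CPM with 1 and 529 CPM with 6.

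Chemokine receptors also divided gated from other lymphocytes at day 7. CXCR3, the receptor for the interferon-induced chemokines CXCL9 and CXCL10, had 78.3 CPM in gated and 28.4 CPM in other lymphocytes of the FAK inhibitor graft, and 56.1 CPM in gated and 14.3 CPM in other lymphocytes of the untreated graft. CCR7, which guides cells to lymph nodes, was lower, with 64.1 CPM in gated and 245 CPM in other lymphocytes of the FAK inhibitor graft, and 66.4 CPM in gated and 238 CPM in other lymphocytes of the untreated graft. CCR4, a skin-homing receptor, was likewise lower, with 24.7 CPM in gated and 81.4 CPM in other lymphocytes of the FAK inhibitor graft, and 37.4 CPM in gated and 164 CPM in other lymphocytes of the untreated graft.

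Few genes kept this difference in all 4 grafts. At day 90, 193 of 1386 genes (13.9%) were higher and 176 (12.7%) lower in gated cells of the FAK inhibitor graft, and 752 of 3116 (24.1%) were higher and 209 (6.71%) lower in the untreated graft. Of 1342 genes compared in all 4 grafts, 9 were higher (0.671%) and 4 lower (0.298%) in each. CCL5 had 6564 CPM in gated and 310.1 CPM in other lymphocytes of the FAK inhibitor day 7 graft, and 5230 CPM in gated and 395 CPM in other lymphocytes of the untreated day 7 graft. At day 90 it had 2627 CPM in gated and 153 CPM in other lymphocytes of the FAK inhibitor graft, and 1271 CPM in gated and 171 CPM in other lymphocytes of the untreated graft. CRTAM, a receptor of activated cytotoxic cells, had 374 CPM in gated and 32.5 CPM in other lymphocytes of the FAK inhibitor day 7 graft, and 356 CPM in gated and 34.5 CPM in other lymphocytes of the untreated day 7 graft. At day 90 CRTAM had 406 CPM in gated and 135 CPM in other lymphocytes of the FAK inhibitor graft, and 295 CPM in gated and 137 CPM in other lymphocytes of the untreated graft. Its level in gated cells varied little over the grafts, while its level in other lymphocytes was higher at day 90, which made the difference smaller. The other genes higher in all 4 were GBP1, HERPUD2, ITM2C, RDX and UBAC2, with 2 identifiers that have no symbol. Those lower were BCL2A1, EVL and RHEX, with 1 such identifier.

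CD8 and adaptor transcripts were used to divide the gate. A UMI of CD8A or CD8B was present in 37.9% of gated cells of the FAK inhibitor day 7 graft (443 of 1168, 35.1 to 40.8%) and 34.3% of the untreated day 7 graft (148 of 432, 29.8 to 38.9%). At day 90 it was present in 31.25% of the FAK inhibitor graft (10 of 32, 16.1 to 50.01%) and 35.6% of the untreated graft (32 of 90, 25.7 to 46.3%). A UMI of TYROBP or FCER1G was present in 18.2% of gated cells of the FAK inhibitor day 7 graft (16.1 to 20.6%) and 22.7% of the untreated day 7 graft (18.8 to 26.9%). At day 90 it was present in 18.75% of the FAK inhibitor graft (7.21 to 36.4%) and 18.9% of the untreated graft (11.4 to 28.5%). The intervals of each of these shares overlapped between the grafts compared. CD3D, CD3E and CD3G were all at 0 in 5.48% of gated cells of the FAK inhibitor day 7 graft and 5.79% of the untreated day 7 graft. At day 90 this share was 12.5% in the FAK inhibitor graft and 8.89% in the untreated graft. The gate let such cells in by CD2 alone. At day 7, 79 gated cells of the FAK inhibitor graft and 34 of the untreated graft had both a CD8 and an adaptor UMI. An adaptor UMI alone does not mark an NK cell. At day 7 TYROBP was in 9.16% of gated cells of the FAK inhibitor graft and 12.3% of the untreated graft, and in a like share of collagen-rich cells, 10.8% in the FAK inhibitor graft and 9.43% in the untreated graft. FCER1G was in 15.8% of gated cells of the FAK inhibitor graft and 18.5% of the untreated graft, and in fewer collagen-rich cells, 5.47% in the FAK inhibitor graft and 5.52% in the untreated graft. TYROBP had 102 CPM in gated and 219 CPM in other lymphocytes of the FAK inhibitor graft, and 98.3 CPM in gated and 162 CPM in other lymphocytes of the untreated graft. FCER1G had 179.6 CPM in gated and 157 CPM in other lymphocytes of the FAK inhibitor graft, and 199 CPM in gated and 165 CPM in other lymphocytes of the untreated graft. At day 7 neither adaptor was thus particular to the gate. At day 90 FCER1G had 203 CPM in gated and 0 CPM in other lymphocytes of the FAK inhibitor graft, from 6 gated cells. In the untreated day 90 graft it had 94.7 CPM in gated and 43.8 CPM in other lymphocytes, from 16 gated cells. CD4 was found in 5.82% of gated cells of the FAK inhibitor day 7 graft and 6.25% of the untreated day 7 graft. TRDC, the constant segment of the delta T cell receptor chain, was found in 0 of 1168 gated cells of the FAK inhibitor day 7 graft, which allows up to 0.257% of cells with a UMI, and in 6 of 432 cells (1.39%) of the untreated day 7 graft.

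Within the day 7 grafts, cells with TYROBP or FCER1G and no CD8 UMI (adaptor cells: 134 in the FAK inhibitor graft, 64 in the untreated graft) were set against cells with a CD8 and no adaptor UMI (CD8 cells: 364 in the FAK inhibitor graft, 114 in the untreated graft). XCL1 stood at 1052 CPM in adaptor cells and 68.2 CPM in CD8 cells of the FAK inhibitor graft, and at 1239 CPM in adaptor cells and 46.0 CPM in CD8 cells of the untreated graft. NCR1 stood at 79.8 CPM in adaptor cells of the FAK inhibitor graft and 97.6 CPM in those of the untreated graft, with 0 UMIs in the CD8 cells of both. KLRB1, the lectin receptor CD161, stood at 219 CPM in adaptor cells and 97.9 CPM in CD8 cells of the FAK inhibitor graft, and at 212 CPM in adaptor cells and 59.2 CPM in CD8 cells of the untreated graft. These genes all lay higher in adaptor cells of both grafts. So did IL2RB, a receptor chain for IL-2 and IL-15, with 204 CPM in adaptor cells and 116 CPM in CD8 cells of the FAK inhibitor graft, and 369 CPM in adaptor cells and 121 CPM in CD8 cells of the untreated graft.

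The CD8 cells carried more GZMK, LAG3 and S1PR1. CD3E, as a gate gene, is given as a description. It stood at 395 CPM in adaptor cells and 1093 CPM in CD8 cells of the FAK inhibitor graft. In the untreated graft it stood at 250.4 CPM in adaptor cells and 747 CPM in CD8 cells. GZMK stood at 55.9 CPM in adaptor cells and 373 CPM in CD8 cells of the FAK inhibitor graft, and at 63.6 CPM in adaptor cells and 362 CPM in CD8 cells of the untreated graft. LAG3, an inhibitory receptor of activated T cells, stood at 33.9 CPM in adaptor cells and 237 CPM in CD8 cells of the FAK inhibitor graft, and at 17.0 CPM in adaptor cells and 164 CPM in CD8 cells of the untreated graft. Each was lower in adaptor cells, as was S1PR1, which lets lymphocytes leave tissue, with 43.9 CPM in adaptor cells and 139 CPM in CD8 cells of the FAK inhibitor graft, and 46.7 CPM in adaptor cells and 184 CPM in CD8 cells of the untreated graft. PRF1 was shared by both kinds, with 208 CPM in adaptor cells and 226 CPM in CD8 cells of the FAK inhibitor graft, and 221 CPM in adaptor cells and 184 CPM in CD8 cells of the untreated graft. GZMH, also a gate gene, is given as a description. It was lower in adaptor cells of the FAK inhibitor graft (1028 CPM, against 2331 CPM in CD8 cells). In the untreated graft it was level (997 CPM in adaptor cells and 1021 CPM in CD8 cells).

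**Figure D3:**
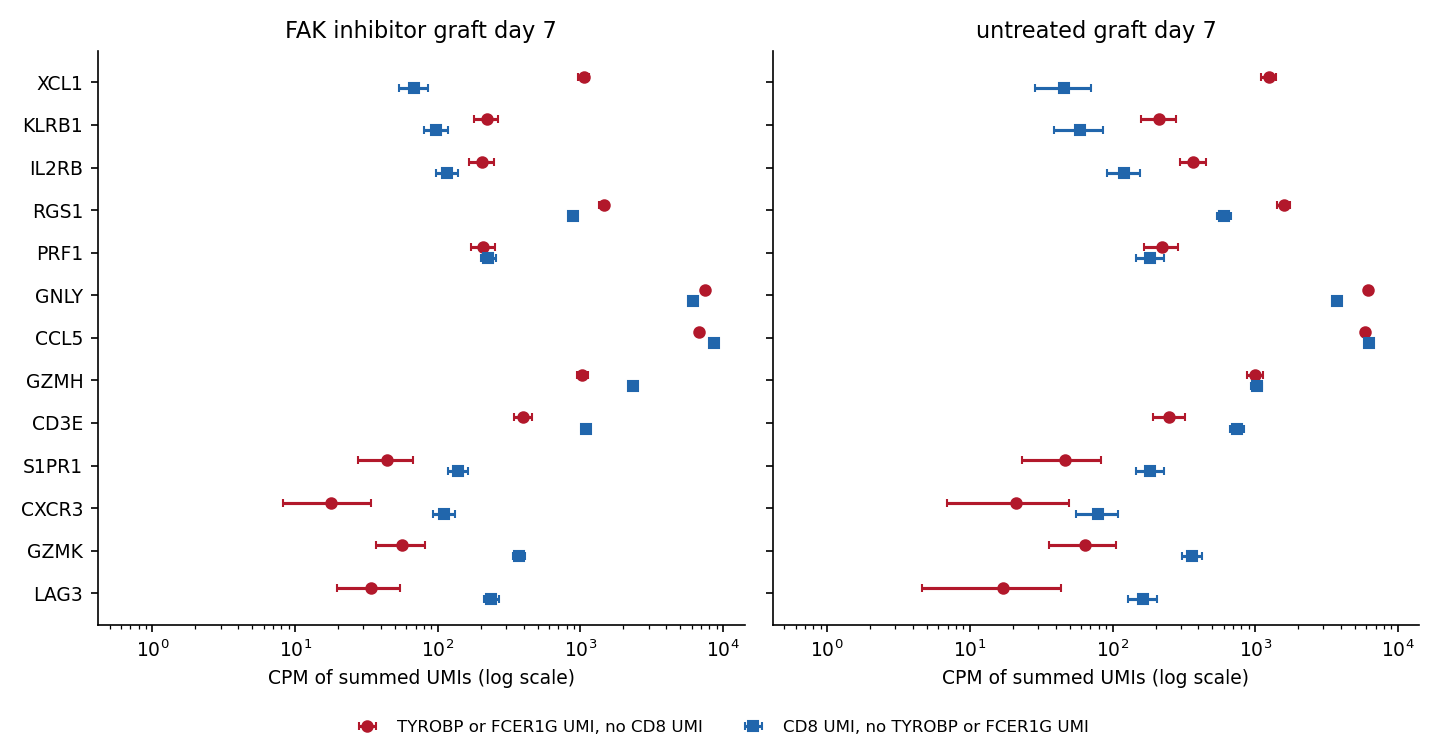
Levels of 13 genes (CPM of summed UMIs, log scale) in gated cells with TYROBP or FCER1G and no CD8 UMI (circles) and with a CD8 and neither adaptor UMI (squares) in the FAK inhibitor (left) and untreated (right) day 7 grafts, with 95% Poisson intervals. XCL1 lies at 1052 CPM in the circles of the left panel and 1239 CPM in those of the right. GZMK and LAG3 lie higher in the squares, and the PRF1 values lie close together. CD3E, GNLY and GZMH are gate genes, shown as a description.

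CD8B marks CD8 alpha-beta T cells, the form that NK cells lack. In the FAK inhibitor day 7 graft the 179 cells with a CD8B UMI had 2561 CPM of GZMA, against 1847 CPM in the 264 cells with CD8A alone. In the untreated day 7 graft the 54 cells with CD8B had 2007 CPM of GZMA, against 658 CPM in the 94 cells with CD8A alone. CCL5 stood at 10208 CPM with CD8B and 8329 CPM without in the FAK inhibitor graft, and at 11816 CPM with CD8B and 4897 CPM without in the untreated graft. CCL5 was thus higher in CD8B cells, and GZMA, as a gate gene, is given as a description. KLRB1 was lower in CD8B cells, with 65.7 CPM with CD8B and 96.9 CPM without in the FAK inhibitor graft, and 20.6 CPM with CD8B and 84.4 CPM without in the untreated graft. The largest portion of the gate, 591 cells of the FAK inhibitor graft and 220 of the untreated graft, had neither a CD8 nor an adaptor UMI. TNFRSF4 stood at 305 CPM in these cells and 89.8 CPM in CD8 cells of the FAK inhibitor graft, and at 215 CPM in these cells and 39.5 CPM in CD8 cells of the untreated graft. CD40LG, the helper ligand for CD40, stood at 126 CPM in these cells and 31.4 CPM in CD8 cells of the FAK inhibitor graft, and at 101 CPM in these cells and 24.1 CPM in CD8 cells of the untreated graft. At a median of 1975 UMIs in the FAK inhibitor graft and 2084 UMIs in the untreated graft, a missing CD8 UMI does not show that a cell lacked CD8.

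At day 7 interferon response genes were higher in gated cells of the FAK inhibitor graft than in those of the untreated graft, and PRF1, GZMK and GZMM were within 1.5-fold. Of 2699 genes compared, 131 (4.85%) were higher and 184 (6.82%) lower in the FAK inhibitor graft. On all 3 scales 73 (2.7%) were higher and 79 (2.93%) lower. With TMM scaling, which put the centre of the log2 ratios at -0.14, 234 were higher and 124 lower. Of 13 compared genes of the killing machinery, GZMK, GZMM and PRF1 among them, 0 were higher, and ADGRG1 was lower but not on all 3 scales, counts near the shares over all genes. PRF1 had 168 CPM in the FAK inhibitor graft and 156 CPM in the untreated graft, a ratio of 1.08 (0.924 to 1.26). GZMK had 258 CPM in the FAK inhibitor graft and 253 CPM in the untreated graft, a ratio of 1.02 (0.903 to 1.16). GZMM had 110.4 CPM in the FAK inhibitor graft and 106 CPM in the untreated graft, a ratio of 1.04 (0.862 to 1.27). The intervals of these ratios included 1 and lay within 1.5-fold, which bounds what counting error alone allows between these libraries.

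Of 24 interferon response genes compared, 21 were higher in the FAK inhibitor graft at day 7 and 0 lower. Among all genes 4.85% were higher and 6.82% lower. On all 3 scales 19 of the interferon genes were higher. The list's median was 1.22 on the log2 scale, against 0.02 for all genes compared. Without the chemokines CXCL9, CXCL10 and CXCL11, 18 of 21 were higher, 16 on all 3 scales, with a median of 1.08. MX1, a GTPase that blocks viral replication, had 203 CPM in the FAK inhibitor graft and 56.1 CPM in the untreated graft, 3.63-fold (2.88 to 4.63). ISG20, an exonuclease that degrades viral RNA, had 218 CPM in the FAK inhibitor graft and 61.6 CPM in the untreated graft, 3.55-fold (2.85 to 4.47). HERC5, the ligase that attaches ISG15 to proteins, had 68.1 CPM in the FAK inhibitor graft and 15.9 CPM in the untreated graft, 4.28-fold (2.79 to 6.88). ISG15, that ubiquitin-like modifier, differed less, with 1499 CPM in the FAK inhibitor graft and 620 CPM in the untreated graft, 2.42-fold (2.25 to 2.6). EPSTI1, an interferon-induced gene outside the list, had 141 CPM in the FAK inhibitor graft and 24.9 CPM in the untreated graft, 5.65-fold (4.02 to 8.16). The transcription factor IRF1 had 361 CPM in the FAK inhibitor graft and 171 CPM in the untreated graft, 2.11-fold (1.84 to 2.43). Of these 6 genes IRF1 differed least and EPSTI1 most. Without cells above 5000 UMIs MX1 had 253 CPM in the FAK inhibitor graft and 72.0 CPM in the untreated graft, and EPSTI1 had 179.6 CPM in the FAK inhibitor graft and 36.6 CPM in the untreated graft.

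The rest of the tissue differed in the same direction. In all other cells of the day 7 libraries the list's median was 0.81, and in other lymphocytes it was 1.41, above that of gated cells. MX1 had 102 CPM in all other cells of the FAK inhibitor graft and 57.7 CPM in those of the untreated graft, so its level in gated cells was above that of the tissue in the FAK inhibitor graft and about the same in the untreated graft. Its UMIs were in 27.0% of gated cells of the FAK inhibitor graft and 9.49% of the untreated graft, while deeper cells of other kinds had them too. The share was, of collagen-rich cells, 32.9% in the FAK inhibitor graft and 21.8% in the untreated graft, and of endothelial cells 38.8% in the FAK inhibitor graft and 34.2% in the untreated graft. GBP1, a guanylate-binding protein, had the smaller difference in gated cells, with 869 CPM in the FAK inhibitor graft and 524 CPM in the untreated graft, 1.66-fold (1.53 to 1.8), which came within 1.5-fold without cells above 5000 UMIs, against 269.7 CPM in all other cells of the FAK inhibitor graft and 47.2 CPM in those of the untreated graft. ISG20 was in 32.2% of gated cells of the FAK inhibitor graft and 12.3% of the untreated graft, but in few collagen-rich cells, 3.3% in the FAK inhibitor graft and 0.765% in the untreated graft. Of endothelial cells, 32.4% in the FAK inhibitor graft and 12.6% in the untreated graft had one. In level, ISG20 stood above the tissue, which had 49.7 CPM in all other cells of the FAK inhibitor graft and 15.4 CPM in those of the untreated graft. By its share of cells neither MX1 nor ISG20 stood above endothelial cells. The part of free RNA in the interferon counts was not tested.

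The level of CXCL10 was lower without the cells above 5000 UMIs, and higher in the rest of the tissue than in gated cells. CXCL10, a ligand of CXCR3, had 2341 CPM in the FAK inhibitor graft and 47.7 CPM in the untreated graft, but its UMIs were in 21.9% of gated cells of the FAK inhibitor graft and 3.94% of the untreated graft, which lay below the shares in other kinds of cell. The share was, of collagen-rich cells, 31.0% in the FAK inhibitor graft and 4.42% in the untreated graft, and of endothelial cells 59.5% in the FAK inhibitor graft and 21.8% in the untreated graft. These other cells were deeper, with medians of 6940 to 13149 UMIs. All other cells had 4457 CPM of CXCL10 in the FAK inhibitor graft and 307 CPM in the untreated graft, above gated cells of both. Whether gated cells express CXCL10 was not tested. Without cells above 5000 UMIs CXCL10 had 338 CPM in the FAK inhibitor graft and 8.54 CPM in the untreated graft. CXCL9 had UMIs in 76 of 1168 gated cells of the FAK inhibitor graft and 8 of 432 of the untreated graft, and CXCL11 in 25 gated cells of the FAK inhibitor graft and 3 of the untreated graft.

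**Figure D4:**
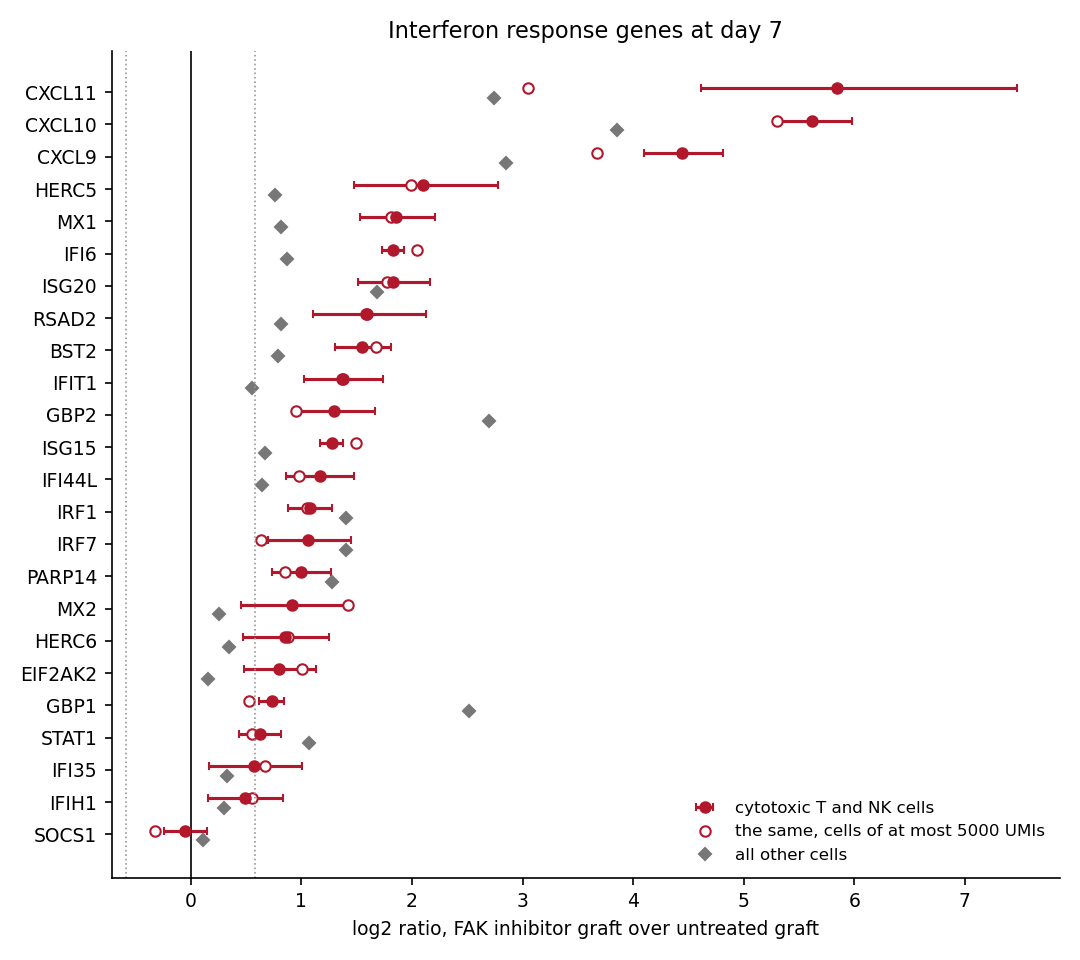
Log2 ratio of FAK inhibitor over untreated graft at day 7 for 24 interferon response genes in gated cells (filled circles with 95% counting intervals), in gated cells of at most 5000 UMIs (open circles) and in all other cells (diamonds). The dotted lines mark 1.5-fold in both directions; 21 genes lie past it on the right and 0 on the left, and GBP1 and GBP2 are the genes whose diamonds lie farthest to the right of their filled circles.

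Antigen processing genes, some of which interferon induces, were partly higher at day 7. Of 13 compared 5 were higher (CTSS, PSMB8, PSMB9, PSME2 and SLA-DQB1) and 0 lower, with 2 on all 3 scales. Of all genes 4.85% were higher and 6.82% lower, and 2.7% were higher on all 3 scales. PSME2, a proteasome activator subunit, had 363 CPM in the FAK inhibitor graft and 169 CPM in the untreated graft, 2.15-fold (1.87 to 2.48). SLA-DQB1, a pig MHC class II chain, had 1052 CPM in the FAK inhibitor graft and 667 CPM in the untreated graft, 1.58-fold (1.47 to 1.69). In all other cells SLA-DQB1 had 686 CPM in the FAK inhibitor graft and 787 CPM in the untreated graft, the opposite order, while in other lymphocytes it was higher by 0.79 on the log2 scale.

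Among secreted factors 3 of 10 were higher at day 7 (AREG, CCL4 and TNF) and 0 lower, where 4.85% of all genes were higher and 6.82% lower. CCL4, an attractant for T cells and macrophages, had 1902 CPM in the FAK inhibitor graft and 1010 CPM in the untreated graft, 1.88-fold (1.78 to 2). In all other cells CCL4 had 999.9 CPM in the FAK inhibitor graft and 1358 CPM in the untreated graft, again the opposite order. Its UMIs were in 49.4% of gated cells of the FAK inhibitor graft and 41.9% of the untreated graft, and of endothelial cells in 45.7% in the FAK inhibitor graft and 48.5% in the untreated graft. Collagen-rich cells had fewer, 11.1% in the FAK inhibitor graft and 10.1% in the untreated graft. The source of the CCL4 UMIs was not tested. TNF had 56.8 CPM in the FAK inhibitor graft and 23.5 CPM in the untreated graft, 2.41-fold (1.67 to 3.58). AREG, a growth factor for epithelium, had 116 CPM in the FAK inhibitor graft and 62.3 CPM in the untreated graft, but 17.0 CPM in the FAK inhibitor graft and 18.3 CPM in the untreated graft without cells above 5000 UMIs, which ends the call.

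Checkpoint and transcription factor genes were mixed at day 7. LAG3 had 151 CPM in the FAK inhibitor graft and 80.3 CPM in the untreated graft, 1.88-fold (1.54 to 2.32), and the costimulator ICOS had 128 CPM in the FAK inhibitor graft and 70.6 CPM in the untreated graft, 1.81-fold (1.46 to 2.27). Neither was past 1.5-fold on all 3 scales. IRF8, a factor that interferon also induces, had 106 CPM in the FAK inhibitor graft and 57.4 CPM in the untreated graft, 1.84-fold (1.45 to 2.36). GATA3, a factor of type 2 and innate lymphocytes, was lower, with 52.8 CPM in the FAK inhibitor graft and 104 CPM in the untreated graft, 0.508-fold (0.408 to 0.635). IL2RA, the high-affinity chain of the IL-2 receptor, was lower too, with 53.1 CPM in the FAK inhibitor graft and 83.04 CPM in the untreated graft, 0.639-fold (0.505 to 0.81). GATA3, IRF8 and IL2RA were past 1.5-fold on all 3 scales.

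Of homing and residency genes 0 of 13, of NK receptor and adaptor genes 0 of 6 and of T cell receptor and co-receptor genes 1 of 13 were past 1.5-fold at day 7. With 4.85% of all genes higher and 6.82% lower, such counts do not set these lists apart. The 1 gene was CD8B, with 77.5 CPM in the FAK inhibitor graft and 48.4 CPM in the untreated graft. KLRB1 had 120.3 CPM in the FAK inhibitor graft and 115 CPM in the untreated graft, and IL2RB had 134 CPM in the FAK inhibitor graft and 197 CPM in the untreated graft, 0.681-fold (0.586 to 0.791). Of 14 immediate early genes 0 were higher and 5 lower, none of the 5 on all 3 scales.

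Other genes that led the day 7 difference included genes of other lineages. TGM3, a transglutaminase of the epidermis, had 63.0 CPM in the FAK inhibitor graft and 9.69 CPM in the untreated graft. HPS5 had 729.8 CPM in the FAK inhibitor graft and 7.61 CPM in the untreated graft, but 53.2 CPM in the FAK inhibitor graft and 11.0 CPM in the untreated graft without cells above 5000 UMIs, with UMIs in 72 of 1168 gated cells of the FAK inhibitor graft and 11 of 432 of the untreated graft. MZB1, a plasma cell gene, had UMIs in 8 gated cells of the FAK inhibitor graft and 2 of the untreated graft. HBB, a globin of red blood cells, had them in 21 gated cells of the FAK inhibitor graft and 7 of the untreated graft. The 7 B and plasma cell markers summed to 487 CPM in the FAK inhibitor graft and 75.4 CPM in the untreated graft, and the 4 measured red blood cell and platelet markers to 246 CPM in the FAK inhibitor graft and 8.3 CPM in the untreated graft. The lower genes named by the rule were mostly those of keratinocytes (KRT1, KRT15, DSP, DSC2, LY6D, CSTA and CCL27) and of fat or vessels (FABP4, CD36 and ADIPOQ), beside MT1A and FCN2. All 7 measured keratinocyte markers were detected and lower, with a sum of 1780 CPM in the FAK inhibitor graft and 5922 CPM in the untreated graft. Without cells above 5000 UMIs the sum was 429 CPM in the FAK inhibitor graft and 493 CPM in the untreated graft, and 1 of the 7 was lower on all 3 scales. ADIPOQ came from 1 cell of the untreated graft. The part of other cell types in these genes was not tested.

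At day 90 ID2, RUNX3, GATA3 and CD69 were higher in gated cells of the FAK inhibitor graft, which had 32 of them, than in those of the untreated graft, which had 90. Of 3260 genes compared 490 (15%) were higher and 1043 (32%) lower in the FAK inhibitor graft. On all 3 scales 189 (5.8%) were higher and 284 (8.71%) lower. Of 14 effector transcription factors 6 were higher and 2 lower, with 4 higher and 1 lower on all 3 scales. Their median was 0.22 on the log2 scale, against -0.16 for all genes compared, and -0.08 without cells above 5000 UMIs. In other lymphocytes the median of these factors was 0.02. ID2, which sustains effector and resident lymphocytes, had 1895 CPM in the FAK inhibitor graft and 830.4 CPM in the untreated graft, 2.28-fold (1.93 to 2.69). RUNX3, a factor of the CD8 lineage, had 220.4 CPM in the FAK inhibitor graft and 98.5 CPM in the untreated graft, 2.24-fold (1.33 to 3.67). GATA3 had 256 CPM in the FAK inhibitor graft and 96.6 CPM in the untreated graft, 2.65-fold (1.62 to 4.25), the reverse of its day 7 direction. The fourth, STAT4, had 79.3 CPM in the FAK inhibitor graft and 35.3 CPM in the untreated graft with an interval of 0.896 to 5.21 that includes 1. CD69, a receptor that retains lymphocytes in tissue, had 273 CPM in the FAK inhibitor graft and 65.0 CPM in the untreated graft, 4.2-fold (2.51 to 7.02), with UMIs in 11 of 32 cells of the FAK inhibitor graft and 19 of 90 of the untreated graft. In other lymphocytes CD69 ran the other way, with 117 CPM in the FAK inhibitor graft and 205 CPM in the untreated graft. Of 12 homing and residency genes compared, 5 were higher, CD69 among them, and 4 lower (CXCR3, ITGA1, KLF2 and S1PR1). On all 3 scales 1 was higher and 0 lower. Also higher on all 3 scales among the leading genes were PTPN7, a phosphatase of lymphocytes, with 97.0 CPM in the FAK inhibitor graft and 26.0 CPM in the untreated graft, FAM117A with 141 CPM in the FAK inhibitor graft and 44.6 CPM in the untreated graft, and CXCL8, the neutrophil attractant, with 247 CPM in the FAK inhibitor graft and 14.9 CPM in the untreated graft from 3 cells of each graft.

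Killing genes at day 90 rested on few cells. Of 14 compared 3 were higher and 1 lower, with 1 of each on all 3 scales. Of all genes 15% were higher and 32% lower, and on all 3 scales 5.8% were higher and 8.71% lower. GZMM had 132 CPM in the FAK inhibitor graft and 66.9 CPM in the untreated graft, 1.98-fold (1.01 to 3.7), from 9 cells of the FAK inhibitor graft and 18 of the untreated graft. GZMK had 70.5 CPM in the FAK inhibitor graft and 145 CPM in the untreated graft, 0.487-fold (0.203 to 1.01), from 3 cells of the FAK inhibitor graft and 15 of the untreated graft. PRF1 had 61.7 CPM in the FAK inhibitor graft and 63.2 CPM in the untreated graft, 0.977-fold (0.365 to 2.24). Only the interval of GZMM, among these 3, left out 1. CCL5 had 2627 CPM in the FAK inhibitor graft and 1271 CPM in the untreated graft, 2.07-fold, but 3730 CPM in the FAK inhibitor graft and 2933 CPM in the untreated graft without cells above 5000 UMIs, which ends the call. XCL1 had 141 CPM in the FAK inhibitor graft and 20.4 CPM in the untreated graft from 4 cells of the FAK inhibitor graft and 7 of the untreated graft, and 99.2 CPM in the FAK inhibitor graft and 70.1 CPM in the untreated graft without the large cells.

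In the sums of all gated cells the interferon list did not keep its day 7 direction at day 90. Of 22 compared 3 were higher and 12 lower in the FAK inhibitor graft, where 15% of all genes were higher and 32% lower. On all 3 scales 2 were higher and 3 lower. The median was -0.62, and 0.64 without cells above 5000 UMIs. It was 0.86 in all other cells and 0.21 in other lymphocytes, both in the day 7 direction. IFI6, a mitochondrial protein induced by interferon, had 591 CPM in the FAK inhibitor graft and 1687 CPM in the untreated graft, but 556 CPM in the FAK inhibitor graft and 459 CPM in the untreated graft without those cells. ISG15 was higher on all 3 scales, with 1164 CPM in the FAK inhibitor graft and 739 CPM in the untreated graft, 1.57-fold (1.28 to 1.92). ISG20 was lower on all 3 scales, with UMIs in 2 of 32 cells of the FAK inhibitor graft and 20 of 90 of the untreated graft. The sign of the list's median turned on 7 large cells of the FAK inhibitor graft and 16 of the untreated graft.

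The most lowered genes at day 90 were of endothelial type, such as GPIHBP1, CD36, CLU, HEY1, SPARCL1 and PXDN. All 8 endothelial markers were detected in both grafts and 7 were lower, with 0 on all 3 scales. They summed to 1137 CPM in the FAK inhibitor graft and 2660 CPM in the untreated graft, and to 238 CPM in the FAK inhibitor graft and 140.3 CPM in the untreated graft without cells above 5000 UMIs. The part of endothelial RNA in the day 90 counts was not tested.

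Between the time points the gated cells differed in both treatments, with immediate early genes and ID2 higher at day 90 and CCL5, PRF1, TNFRSF4 and 4 of 6 NK list genes lower. In FAK inhibitor grafts 753 of 3006 genes (25%) were higher at day 90 and 812 (27%) lower, and in untreated grafts 855 of 3234 (26.4%) were higher and 455 (14.1%) lower. On all 3 scales 513 (17.1%) were higher and 462 (15.4%) lower in FAK inhibitor grafts, and 284 (8.78%) were higher and 231 (7.14%) lower in untreated grafts. TMM scaling put the centre of the log2 ratios at 0.27 in FAK inhibitor grafts and at 0.26 in untreated grafts, and gave 530 higher and 1125 lower in FAK inhibitor grafts, and 588 higher and 796 lower in untreated grafts. The comparisons of the 2 treatments have no library in common. Of 2641 genes compared in both, 93 (3.52%) were higher on all 3 scales in both, 18.1% of those higher in FAK inhibitor grafts and 32.7% of those higher in untreated grafts. Of those higher in untreated grafts 9 were lower in FAK inhibitor grafts. Lower in both were 89 (3.37%), 19.3% of those of FAK inhibitor grafts and 38.5% of those of untreated grafts, and 4 of those lower in untreated grafts were higher in FAK inhibitor grafts.

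Of 14 immediate early genes compared at both time points, 8 were higher at day 90 on all 3 scales in both treatments, where 3.52% of all genes were (FOS, FOSB, EGR1, DUSP1, ZFP36, ZFP36L1, KLF6 and NFKBIA), and 0 were lower in either. FOS, a subunit of the AP-1 factor, had 1578 CPM at day 90 and 361 CPM at day 7 in FAK inhibitor grafts, 4.36-fold (3.71 to 5.11). It had 1973 CPM at day 90 and 333 CPM at day 7 in untreated grafts, 5.93-fold (5.32 to 6.62). DUSP1, a phosphatase that ends MAP kinase signals, had 511 CPM at day 90 and 217 CPM at day 7 in FAK inhibitor grafts, and 949 CPM at day 90 and 199 CPM at day 7 in untreated grafts. ZFP36, which destabilises cytokine mRNA, had 961 CPM at day 90 and 275 CPM at day 7 in FAK inhibitor grafts, and 1031 CPM at day 90 and 385 CPM at day 7 in untreated grafts. Both day 90 libraries lay above both day 7 libraries for FOS, DUSP1 and ZFP36. In all other cells FOS differed in the same direction, with 2737 CPM at day 90 and 859 CPM at day 7 in FAK inhibitor grafts, and 2202 CPM at day 90 and 659 CPM at day 7 in untreated grafts. Over the list, the median in gated cells was 1.37 in FAK inhibitor grafts and 0.87 in untreated grafts, against 0.64 in all other cells of FAK inhibitor grafts and 0.11 in those of untreated grafts. In other lymphocytes it was 0.75 in FAK inhibitor grafts and 1.31 in untreated grafts, in the same direction.

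ID2, TSC22D3, TXNIP, NR4A1 and NR4A2 were also higher at day 90 on all 3 scales in both treatments. ID2 had 1895 CPM at day 90 and 420.2 CPM at day 7 in FAK inhibitor grafts, 4.51-fold (3.89 to 5.21), and 830.4 CPM at day 90 and 397 CPM at day 7 in untreated grafts, 2.09-fold (1.84 to 2.37). In all other cells it differed less, with 384 CPM at day 90 and 259 CPM at day 7 in FAK inhibitor grafts, and 315 CPM at day 90 and 264 CPM at day 7 in untreated grafts. In other lymphocytes it was likewise higher at day 90, with 1607 CPM at day 90 and 372 CPM at day 7 in FAK inhibitor grafts, and 1123 CPM at day 90 and 362 CPM at day 7 in untreated grafts. TSC22D3, a glucocorticoid-induced restrainer of T cell activation, had 564 CPM at day 90 and 124 CPM at day 7 in FAK inhibitor grafts, 4.54-fold (3.44 to 5.91), and 321 CPM at day 90 and 136 CPM at day 7 in untreated grafts, 2.37-fold (1.92 to 2.92). TXNIP, an inhibitor of glucose uptake, had 291 CPM at day 90 and 46.0 CPM at day 7 in FAK inhibitor grafts, and 399 CPM at day 90 and 95.5 CPM at day 7 in untreated grafts. NR4A2, a nuclear receptor induced by antigen receptor signals, had 476 CPM at day 90 and 163 CPM at day 7 in FAK inhibitor grafts, and 312 CPM at day 90 and 188 CPM at day 7 in untreated grafts. TNF was the one secreted factor of 10 that was higher in both, with 123 CPM at day 90 and 56.8 CPM at day 7 in FAK inhibitor grafts, and 74.3 CPM at day 90 and 23.5 CPM at day 7 in untreated grafts. GATA3 was higher on all 3 scales in FAK inhibitor grafts, with 256 CPM at day 90 and 52.8 CPM at day 7 in FAK inhibitor grafts, 4.84-fold (3.16 to 7.19). It had 96.6 CPM at day 90 and 104 CPM at day 7 in untreated grafts, 0.931-fold (0.665 to 1.28), but was higher by 0.84 on the log2 scale without cells above 5000 UMIs. The difference between the treatments was not tested.

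Some activation receptors and NK list genes were lower at day 90, in gated cells and in other lymphocytes. Of 8 checkpoint and costimulation genes compared in both treatments, 4 were lower on all 3 scales in both, where 3.37% of all genes were. TNFRSF4 had 35.3 CPM at day 90 and 186 CPM at day 7 in FAK inhibitor grafts, 0.19-fold (0.0515 to 0.488), and 33.4 CPM at day 90 and 134 CPM at day 7 in untreated grafts, 0.249-fold (0.145 to 0.404). In other lymphocytes TNFRSF4 had 117 CPM at day 90 and 415 CPM at day 7 in FAK inhibitor grafts, and 91.6 CPM at day 90 and 371 CPM at day 7 in untreated grafts. ICOS had 35.3 CPM at day 90 and 128 CPM at day 7 in FAK inhibitor grafts, and 33.4 CPM at day 90 and 70.6 CPM at day 7 in untreated grafts. HAVCR2 (TIM-3, an inhibitory receptor) and TNFRSF18 (GITR, a costimulatory receptor) were the others. Of 6 NK genes 4 were lower in both, namely KLRB1, IL2RB, XCL1 and SLAMF7. The adaptors TYROBP and FCER1G were lower in untreated grafts but within 1.5-fold in FAK inhibitor grafts. The median of the NK list was -0.77 in gated cells and -1.65 in other lymphocytes of FAK inhibitor grafts, and -1.49 in gated cells and -1.57 in other lymphocytes of untreated grafts. IL2RB had 52.9 CPM at day 90 and 134 CPM at day 7 in FAK inhibitor grafts, 0.394-fold (0.144 to 0.864), and 74.3 CPM at day 90 and 197 CPM at day 7 in untreated grafts, 0.377-fold (0.264 to 0.526). KLRB1 had UMIs in 0 of 32 cells at day 90 and 86 of 1168 at day 7 in FAK inhibitor grafts, and in 2 of 90 cells at day 90 and 33 of 432 at day 7 in untreated grafts. With 32 cells a count of 0 allows up to 9.38% of cells with a UMI, so for KLRB1 the FAK inhibitor pair is limited by the number of cells. Its call as lower in FAK inhibitor grafts rests on that count of 0. NCR1 was higher in FAK inhibitor grafts, with 97.0 CPM at day 90 and 13.3 CPM at day 7 in FAK inhibitor grafts from 4 cells at day 90 and 31 at day 7, and was below the minimum for comparison in untreated grafts.

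Of the killing genes PRF1 was lower at day 90 on all 3 scales in both treatments, with 61.7 CPM at day 90 and 168 CPM at day 7 in FAK inhibitor grafts, 0.367-fold (0.147 to 0.762), and 63.2 CPM at day 90 and 156 CPM at day 7 in untreated grafts, 0.406-fold (0.274 to 0.584). CCL5 was lower with it, with 2627 CPM at day 90 and 6564 CPM at day 7 in FAK inhibitor grafts, 0.4-fold (0.356 to 0.449), and 1271 CPM at day 90 and 5230 CPM at day 7 in untreated grafts, 0.243-fold (0.224 to 0.263). GFI1, a transcriptional repressor, had 70.5 CPM at day 90 and 237 CPM at day 7 in FAK inhibitor grafts, and 52.0 CPM at day 90 and 228 CPM at day 7 in untreated grafts. These 3 genes lay lower in both day 90 libraries than in both day 7 libraries. Other killing genes depended on the large cells. In FAK inhibitor grafts 6 of 14 were lower and 1 higher, with 4 lower and 1 higher on all 3 scales. Of all genes there 27% were lower and 25% higher, and on all 3 scales 15.4% were lower and 17.1% higher. In untreated grafts 7 of 13 were lower and 1 higher, and 1 was lower on all 3 scales. Of all genes there 14.1% were lower and 26.4% higher, and 7.14% were lower on all 3 scales. The list's median was -0.61, and 0.09 without cells above 5000 UMIs. CTSC, the protease that activates granzymes, had 423 CPM at day 90 and 745 CPM at day 7 in FAK inhibitor grafts, but 714 CPM at day 90 and 848 CPM at day 7 in FAK inhibitor grafts without the large cells.

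**Figure D5:**
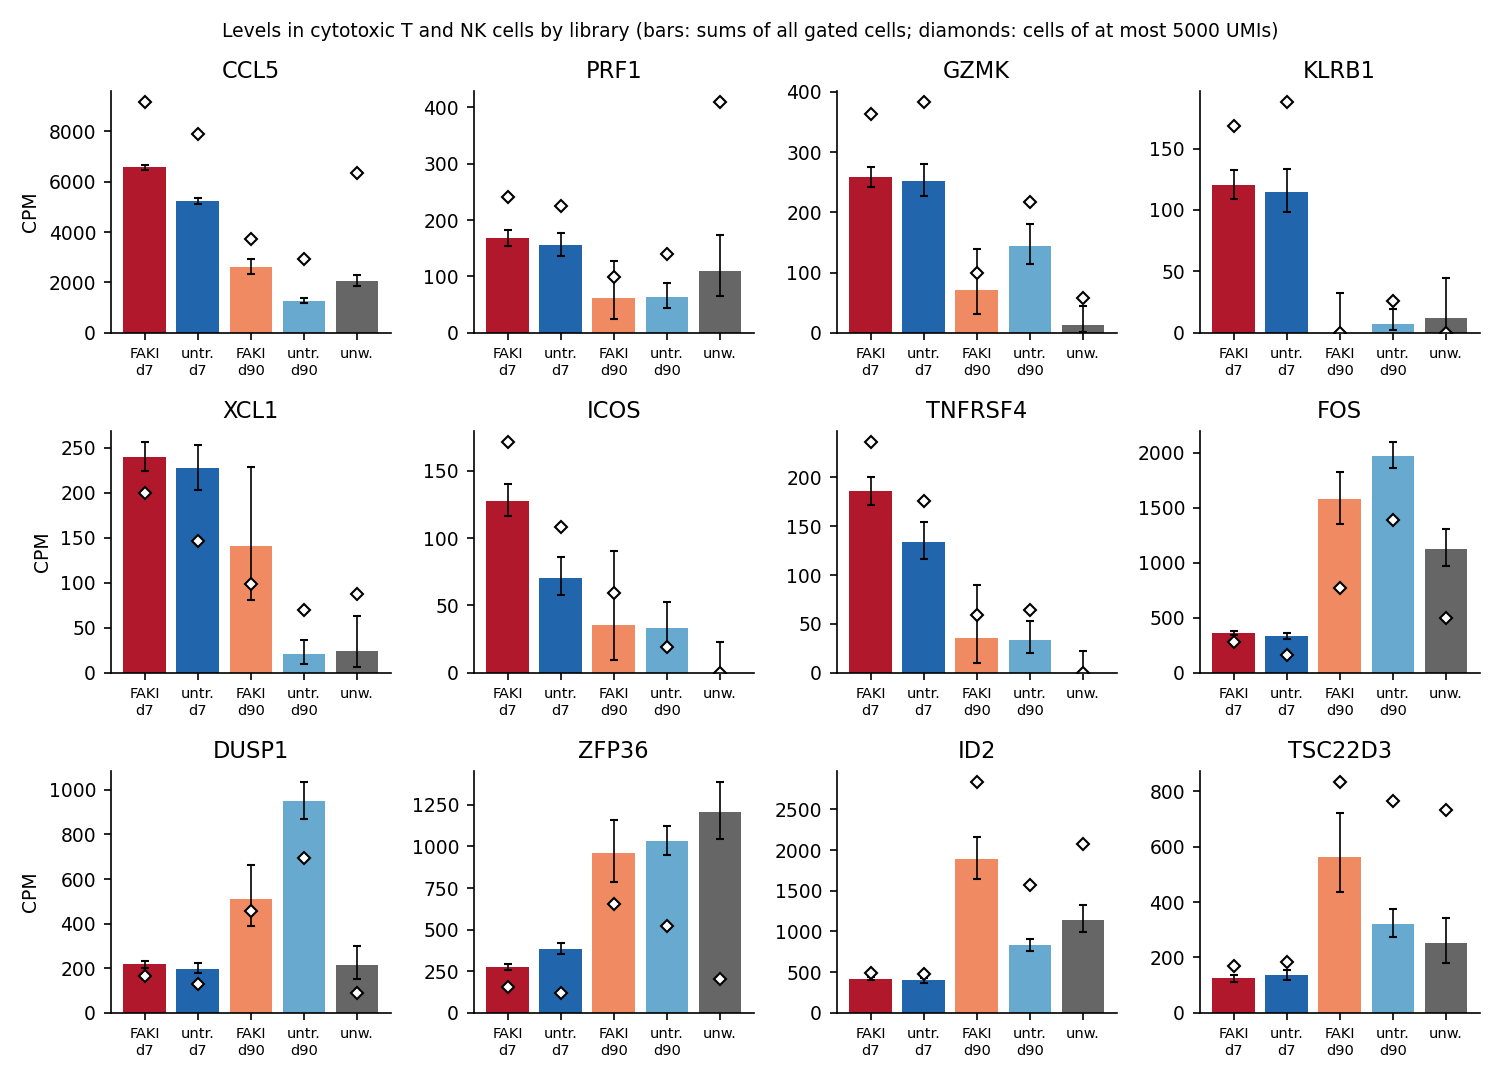
Levels of 12 genes in gated cells of each library (FAKI, FAK inhibitor; untr., untreated; unw., unwounded skin): bars are CPM of summed UMIs with 95% Poisson intervals, and diamonds the sums without cells above 5000 UMIs. CCL5, PRF1, KLRB1, ICOS and TNFRSF4 lie lower in both day 90 grafts than in both day 7 grafts, and FOS, DUSP1, ZFP36, ID2 and TSC22D3 lie higher.

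Interferon response genes followed no common course between the time points. In FAK inhibitor grafts 0 of 24 were higher at day 90 and 15 lower, where 25% of all genes were higher and 27% lower. On all 3 scales 6 were lower. The median was -1.19, and -0.28 without cells above 5000 UMIs. In untreated grafts 13 of 22 were higher and 1 lower, where 26.4% of all genes were higher and 14.1% lower. On all 3 scales 3 were higher. The median was 0.68, and -0.01 without cells above 5000 UMIs. IFI6 had 591 CPM at day 90 and 2243 CPM at day 7 in FAK inhibitor grafts, 0.263-fold (0.204 to 0.335), on all 3 scales. In untreated grafts it had 1687 CPM at day 90 and 632 CPM at day 7 in untreated grafts, which was a lower level at day 90 once the large cells were left out, with 459 CPM at day 90 and 569.9 CPM at day 7 in untreated grafts. Of 21 interferon genes compared in both treatments 0 were past 1.5-fold on all 3 scales in the same direction.

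The other leading genes of the time comparisons included many of other lineages. In untreated grafts the highest were endothelial in type, RAMP3, MECOM, CLU, BTNL9 and GPIHBP1 among them, and all 8 endothelial markers were higher, with 1 on all 3 scales. They summed to 2660 CPM at day 90 and 495 CPM at day 7 in untreated grafts, and to 140.3 CPM at day 90 and 135 CPM at day 7 in untreated grafts without cells above 5000 UMIs. The lowest were keratinocyte genes such as KRT5, KRT14, KRT15, LY6D and DSP, with a marker sum of 48.3 CPM at day 90 and 5922 CPM at day 7 in untreated grafts and 4 of 7 markers detected at day 90. In FAK inhibitor grafts CXCL10, HPS5 and CXCL9 led the lower genes, and LTBP4, IER5L and FBLN2 the higher. IER5L was higher on all 3 scales in both treatments. The endothelial markers summed to 1137 CPM at day 90 and 545 CPM at day 7 in FAK inhibitor grafts. The part of other cell types in these genes was not tested. MYC, a factor of growth and proliferation, was higher in FAK inhibitor grafts, with 291 CPM at day 90 and 58.5 CPM at day 7 in FAK inhibitor grafts, 4.98-fold (3.34 to 7.21). In untreated grafts MYC had 117 CPM at day 90 and 124 CPM at day 7 in untreated grafts, and 147 CPM at day 90 and 59.8 CPM at day 7 in untreated grafts without cells above 5000 UMIs.

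The 21 gated cells of unwounded skin were too few for a comparison and are described by their values. GNLY was in 81.0% of them, GZMH in 81.0%, GZMA in 57.1%, NKG7 in 100% and CCL5 in 85.7%. PRF1 was in 8 cells at 110.2 CPM, and CD8A in 11 cells at 135 CPM. GZMK was in 1 cell and KLRB1 in 1 cell. TNFRSF4, ICOS and ISG20 were in 0 of 21 cells, which allows up to 14.3% of cells with a UMI. ID2 was in 18 of 21 cells at 1145 CPM, between the FAK inhibitor day 90 graft at 1895 CPM and the untreated day 90 graft at 830.4 CPM. FOS stood at 1127 CPM, and at 497 CPM without cells above 5000 UMIs.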

How the data were processed

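Single-cell RNA of 5 pig skin libraries, 1 per group, was analysed from matrices of UMI counts per gene and cell barcode that the authors deposited. Per the labels' protocols, enzymes dissociated the tissue before capture on the 10x Chromium 3' platform. The submitters' processing notes name Cell Ranger, and Seurat 3.1.1 for later steps, which were not used here. The genome build was not given in the sources used here. Symbols were available for 15344 of 20286 gene identifiers, and 670 of these came from a table of pig gene names. The pair of identifiers named GZMA was summed.

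The gate was applied to cells with at least 500 genes, with no limit on mitochondrial UMIs and doublets kept. UMIs were summed over gated cells per library and scaled to CPM. Ratios have exact conditional binomial intervals, levels exact Poisson intervals and shares exact Clopper-Pearson intervals, all at 95% and covering counting error only; UMIs remove duplicates of amplification. A count of 0 allows up to 3 counts. With 1 library per group no test was possible and no p-value is given. A library entered a gene comparison with at least 30 gated cells, counted before cells above 5000 UMIs were left out. Other lymphocytes met the gate with 0 or 1 cytotoxic gene. Free RNA was read in collagen-rich cells (collagens at 5% or more of UMIs) and endothelial cells (3 or more UMIs of PECAM1, CDH5 and VWF and collagens below 2%), both with 0 UMIs of CD2, CD3E and CD3D.

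Genes were named when they belonged to the 25 lists (318 of 377 genes measured) and the results turned on them. Genes outside the gate that were neither ribosomal nor mitochondrial were also named, up to 12 per direction, when their interval lay wholly past 1.5-fold and their CPM in gated cells of the higher library was at least 0.5 times that of its other cells. The members and lists were chosen with earlier results of these data known. The comparison was tested on simulated data. Alternatives were another gate, filter, fold, minimum, thinning or scaling, with TMM factors from edgeR 4.0.16, and removal of the top Scrublet scores at 0.8% per 1000 cells. The rule of 3 scales, and leaving out gated cells above 5000 UMIs or rich in markers of other lineages, were chosen after seeing the data. Work was done in Python 3.11.15 with Scanpy 1.11.5, SciPy 1.17.1, Matplotlib 3.10.9, pandas 2.3.3 and NumPy 2.4.6.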

Additional observations from a re-analysis of the deposited data

Results flagged for a closer look

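GATA3, MYC, IFI6 and CXCL9 had opposite differences between FAK inhibitor and untreated grafts at day 7 and at day 90, each with an interval past 1.5-fold. The difference between the time points was not tested. On the log2 scale GATA3 was at -0.98 at day 7 and 1.40 at day 90, and kept both directions on the 3 scales. MYC was at -1.08 at day 7 and 1.31 at day 90, neither past 1.5-fold on all 3 scales. IFI6 was at 1.83 at day 7 and -1.51 at day 90, where it had 556 CPM in the FAK inhibitor graft and 459 CPM in the untreated graft without cells above 5000 UMIs. CXCL9 was at 4.44 at day 7. At day 90 it had 0 UMIs in the FAK inhibitor graft and UMIs in 2 cells of the untreated graft, so its -3.55 is a bound set by the floor of 3 counts, and without cells above 5000 UMIs it was at 0 in both.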

How the results depend on the processing

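With each group a single library of at most 1168 gated cells, depth limits every result, and no paired analysis was possible because each group has 1 library. The share of gated cells in the FAK inhibitor day 7, untreated day 7, FAK inhibitor day 90 and untreated day 90 grafts was 5.64%, 2.57%, 0.37% and 0.797% among cells with at least 1000 genes, 9.79%, 3.73%, 0.47% and 0.981% with at least 3 of 6 cytotoxic genes, and 8.003%, 2.94%, 0.354% and 0.682% with cells thinned to 1500 UMIs. It was 11.8% in the FAK inhibitor day 7 graft with CD3E or CD3D required, and 11.0% there and 4.63% in the untreated day 7 graft without gated cells above 5000 UMIs. Counts of higher and lower genes moved most with the rule. At 2-fold they were 46 and 69 for FAK inhibitor over untreated grafts at day 7, 165 and 666 at day 90, 468 and 186 for day 90 over day 7 in untreated grafts, and 421 and 455 in FAK inhibitor grafts. With a minimum of 100 CPM they were 84 and 91, 246 and 432, 386 and 256, and 322 and 438 in that order. With no CPM minimum they were 656 and 1566 at day 7, 2113 and 1145 in untreated and 1945 and 1705 in FAK inhibitor grafts. At day 7 the higher genes were 234 with TMM and 227 with thinned cells, and the lower ones 107 with CPM averaged over cells and 118 without cells above 5000 UMIs. For day 90 over day 7 in untreated grafts the lower genes were 796 with TMM and the higher ones 433 with thinned cells. Against other lymphocytes the genes higher and lower in all 4 grafts were 16 and 12 with CPM averaged over cells and 16 and 15 with 3 of 6 cytotoxic genes, and the lower ones were 1 with 1000 genes per cell and 12 without cells above 5000 UMIs. Reversed on the log2 scale were MT1A at day 7 (0.25 without cells above 5000 UMIs), ADIRF (-1.49) and VCAM1 (-0.32) at day 90 with doublets removed, and CLU in untreated grafts (-3.02 with 3 of 6 genes, -1.72 with collagens below 0.5%). The interferon median at day 90 was 0.18 at 100 CPM. In untreated grafts over time the killing median was 0.058 with thinned cells and 0.11 without cells above 5000 UMIs (genes chosen anew), the T cell receptor median 0.33, 0.15 and, with CPM averaged over cells, 0.23, the secreted median 0.23 with thinned cells, and the interferon median -0.37 with thinned cells and -0.011 without large cells. The secreted median in FAK inhibitor grafts was 0.30 with no minimum. The cause of these changes was not tested. Of named genes 5 were no longer past 1.5-fold under an alternative. Beside the 10 reversed list medians given above, 55 more moved, 9 of them to the other sign. In other results 125 counts and shares, 1199 values of named genes and 669 list medians kept their direction and size. Alternative settings that left under 30 gated cells, and every setting for grafts against unwounded skin genes, were not run. The rule of 3 scales is an exception. It used the FAK inhibitor day 90 graft without its cells above 5000 UMIs, which left under 30 gated cells.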
